A study of Mus musculus with 9 samples.

Results

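The WNK kinases and SPAK/OSR1 effectors examined here are a set of 9 genes of the pathway by which cells adjust ion transport to chloride and cell volume: the kinases *Wnk1*, *Wnk2*, *Wnk3* and *Wnk4*, the effector kinases *Oxsr1* and *Stk39*, and the cotransporters *Slc12a2*, *Slc12a4* and *Slc12a7*. They were chosen by gene symbol, and all 9 were found among the 31274 entries of the deposited expression table. The samples were whole uteri of C57BL/6 mice on pseudopregnancy day 4.5, the time of uterine receptivity, with 1 library for each of 4 Wnk1f/f and 5 Wnk1d/d females. The females were 6 to 10 weeks old and had been paired with vasectomized wild-type males, so that no embryos were present. Both groups carried *Wnk1* alleles in which loxP sites flank exon 2. The Wnk1d/d mice also carried 1 copy of a Cre recombinase driven by the progesterone receptor gene (PGR-Cre), which removes that exon. Cells without progesterone receptor, such as immune and endothelial cells, keep an intact *Wnk1* in this model, and their RNA is part of a whole uterus library. Expression was given as FPKM, a count of fragments corrected for exon length and for library size, which allows levels of genes of different length to be compared.

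WNK kinases are serine/threonine kinases that respond to low intracellular chloride and to osmotic stress. They phosphorylate and switch on the related kinases SPAK, the product of *Stk39*, and OSR1, the product of *Oxsr1*. These in turn phosphorylate cation-chloride cotransporters of the SLC12 family, which activates NKCC1 (*Slc12a2*), a carrier that brings sodium, potassium and chloride into the cell, and inhibits the potassium-chloride cotransporters KCC1 (*Slc12a4*) and KCC4 (*Slc12a7*), which let potassium and chloride out. In the uterus, ion transport across the epithelium sets the volume of fluid in the lumen, which falls before implantation.

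The deleted piece of *Wnk1* is shown first, because it sets what the FPKM of this gene can report. *Wnk1* lies on the minus strand at chr6:119923969-120038672 (mm10, GENCODE release M21). Its 5 annotated coding transcripts with a start codon share exon 2, which spans chr6:120002193-120002365 and is coding throughout. In the first of the sequences that follow, exon 2 is in capitals between 30 bases of exon 1 and 30 bases of exon 3, read 5′ to 3′ on the minus strand. The second joins the same flanks without exon 2, with the first in-frame stop codon in capitals.
*Wnk1* exon 2 with flanks: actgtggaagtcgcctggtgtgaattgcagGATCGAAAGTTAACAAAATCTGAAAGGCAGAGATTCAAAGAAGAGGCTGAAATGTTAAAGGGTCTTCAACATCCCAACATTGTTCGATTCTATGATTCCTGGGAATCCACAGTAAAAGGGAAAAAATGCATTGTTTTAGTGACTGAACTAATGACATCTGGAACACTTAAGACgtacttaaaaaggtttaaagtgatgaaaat
*Wnk1* exon 1 joined to exon 3: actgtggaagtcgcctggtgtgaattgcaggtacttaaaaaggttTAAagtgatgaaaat
Exon 2 holds 173 bases, which is 2 more than a whole number of codons, and in the joined sequence the reading frame meets a stop at codon 259, where the 5 annotated transcripts run to between 2128 and 2635 codons. The exon makes up 1.53% to 2.12% of these transcripts. FPKM is computed over a whole gene, so a transcript that lacks only exon 2 still adds nearly all of its length to the value. The share of *Wnk1* RNA with and without exon 2 was not analysed here.

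The depth of the libraries in fragments is unknown, because the table gives FPKM only, and attempts to read relative depth from the smallest values gave different answers for different selections of genes. Between 19253 and 20063 entries were above 0 in a library. The median log2(FPKM + 1) of the genes tested lay between 3.80 and 3.82 in all 9 libraries. A few libraries stood apart. In Wnk1d/d replicate 4 a single short entry, DQ702843, took 70.3% of the summed FPKM, while the median of that library was 3.80. Wnk1f/f replicate 4 held transcripts of liver, with 77.7 FPKM of *Alb* (albumin) against 0.03 to 1.5 in the other 8 libraries. The liver markers *Apoa1*, *Ahsg* and *Ttr* were also highest there. The remaining liver marker, *Serpina1a*, was not, with 13.4 FPKM there and 23.3 FPKM in Wnk1d/d replicate 1. Each left-out library gave the same 3 calls among the 9 genes, these included.

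In Wnk1d/d uteri the FPKM of *Wnk1* and of *Slc12a7* was lower, and that of *Stk39* higher, than in Wnk1f/f uteri. Only the Wnk1d/d mice carried PGR-Cre, so loss of exon 2 and presence of the Cre allele cannot be told apart. *Wnk2*, *Wnk4*, *Oxsr1*, *Slc12a2* and *Slc12a4* did not pass the test, and *Wnk3* was too low to be tested with the rest. The test was limma on log2(FPKM + 1) over the 14728 genes with a mean above 1 FPKM in at least 1 genotype, with p adjusted by the Benjamini-Hochberg method and a threshold of 0.05. Because 1 is added before the logarithm, a gene of low FPKM shows less than its full fold change. Of the 8 members tested, 3 passed, against 22.1% of all genes tested, so the count on 8 genes is small and is not read further. The share over all genes depends on the libraries, as the 3249 genes called became 1739 without Wnk1f/f replicate 4 and 1800 without Wnk1d/d replicate 3, while the members called stayed at 3. In each direction, 1 member was higher, against 11.1% of all genes, and 2 were lower, against 11.0%. None of the 8 also reached a ratio of 1.5 between the mean FPKM of the genotypes, which 10.3% of all genes did. The libraries of the genotypes did not overlap for 3 of the 8 tested members, against 19.9% of all genes tested.

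**Figure D1:**
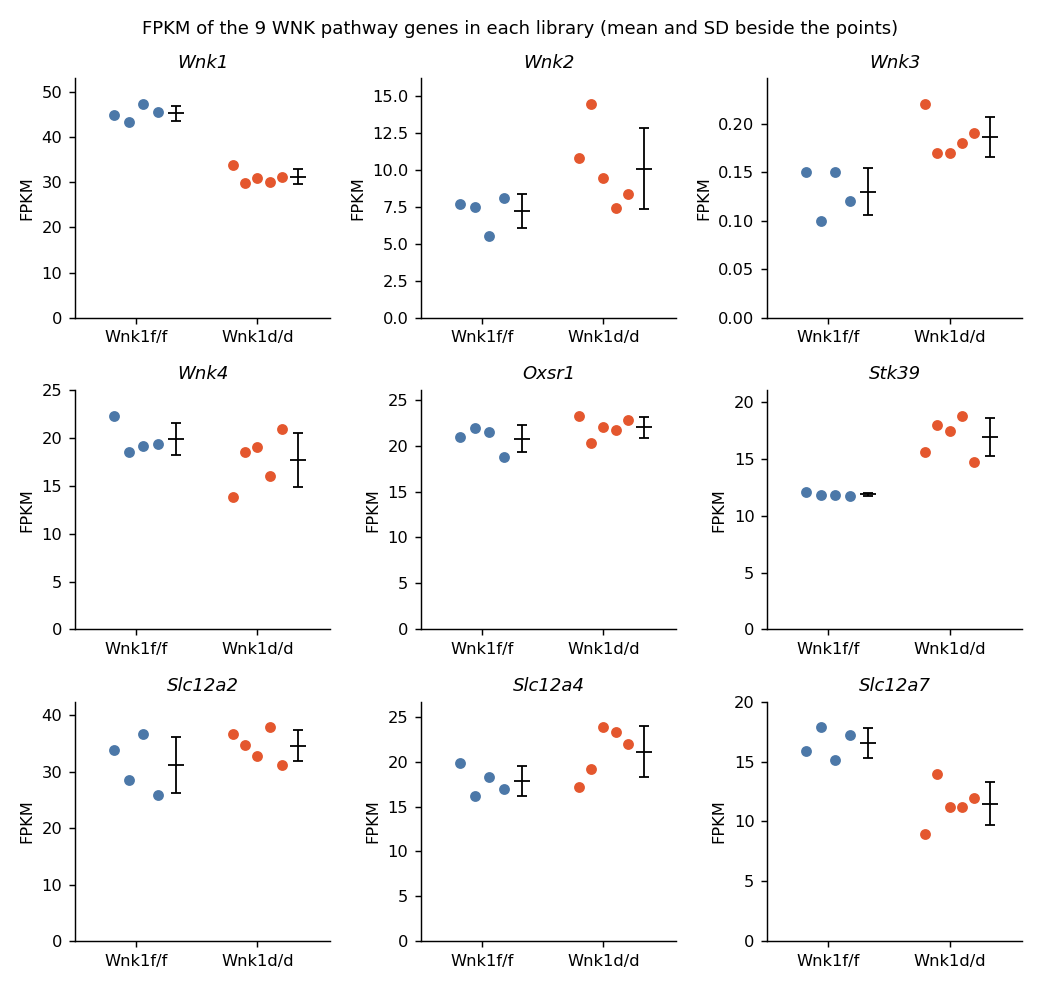
FPKM of each of the 9 genes (vertical axes, each from 0) in the 4 Wnk1f/f and 5 Wnk1d/d libraries, 1 point per library, with the mean and SD beside the points. *Wnk1* and *Slc12a7* lie lower in every Wnk1d/d library than in any Wnk1f/f library, and *Stk39* and the very low *Wnk3* lie higher.

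*Wnk1*, the targeted kinase and the most abundant of the 9 genes in Wnk1f/f uteri, measured 44.9, 43.4, 47.3 and 45.5 FPKM in Wnk1f/f replicates 1 to 4 and 33.9, 29.9, 31.0, 30.2 and 31.3 FPKM in Wnk1d/d replicates 1 to 5. The groups were tight and did not overlap, so *Wnk1* FPKM and genotype label go together in every library, and the highest Wnk1d/d value was that of replicate 1. The means were 45.3 ± 1.62 FPKM (SD, n = 4) and 31.2 ± 1.62 FPKM (SD, n = 5), a ratio of 0.690. The difference of log2(FPKM + 1) was -0.52 with a 95% confidence interval from -0.65 to -0.40 (standard error 0.06, limma adjusted p = 0.0017). An exact two-sided permutation test gave p = 0.0079, the smallest that 4 against 5 libraries allow. In whole tissue, fewer cells of a type and less RNA per cell cannot be told apart.

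Among markers of cell types that keep *Wnk1* in this model, those of endothelium differed and those of immune cells did not pass the test. The 6 endothelial markers (*Pecam1*, *Cdh5*, *Kdr*, *Tek*, *Emcn* and *Vwf*) were all called lower in Wnk1d/d uteri, as were 11.0% of all genes tested, and their summed FPKM was 331, 367, 351 and 350 in Wnk1f/f and 132, 266, 173, 227 and 216 in Wnk1d/d replicates. These sums did not overlap, and *Pecam1*, the most abundant, went from a mean of 92.5 to 60.0 FPKM. Of 6 immune cell markers, 5 were in the table, 0 of these 5 passed the limma test or had an unadjusted p under 0.05, and their summed FPKM averaged 97.4 ± 28.3 (SD, n = 4) in Wnk1f/f and 79.0 ± 14.0 (SD, n = 5) in Wnk1d/d uteri, with *Nkg7* the most abundant. Wnk1f/f replicate 4 had the highest of these sums, 133.5, and 4.33 FPKM of *Cd3e* against 0.10 to 1.05 in the other libraries. Outside these cell types, the 6 smooth muscle markers were all called higher, as were 11.1% of all genes tested, and their summed FPKM was 6372, 4108, 5236 and 2797 in Wnk1f/f and 9476, 7210, 10760, 13650 and 13110 in Wnk1d/d replicates, led by *Tagln*. The part of these shifts in the differences of *Wnk1* and of the other members was not tested. *Pgr*, whose promoter drives the Cre, averaged 16.6 ± 4.01 FPKM (SD, n = 4) and 17.8 ± 3.06 FPKM (SD, n = 5), which did not pass the limma test (adjusted p = 0.66).

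**Figure D2:**
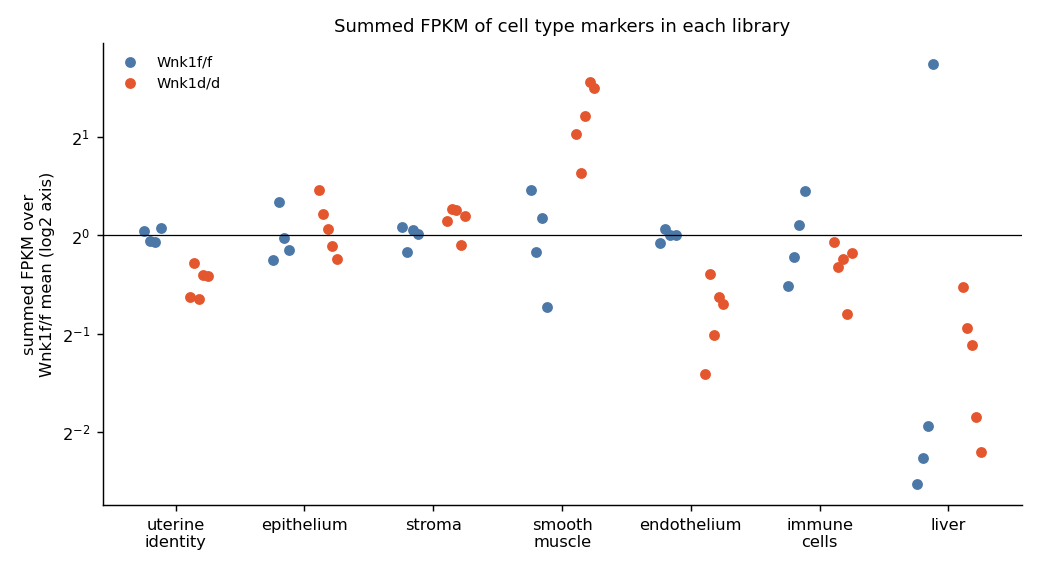
Summed FPKM of 7 lists of cell type markers in each library, divided by the mean of the Wnk1f/f libraries (vertical axis, log2 scale), 1 point per library. Smooth muscle sums lie above and endothelial sums below every Wnk1f/f library in all 5 Wnk1d/d libraries, and liver markers stand out in Wnk1f/f replicate 4.

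*Wnk4*, a kinase best known from the distal nephron of the kidney, was the next WNK gene in level, and *Wnk2* followed. *Wnk4* measured 22.4, 18.6, 19.2 and 19.4 FPKM in Wnk1f/f and 13.8, 18.6, 19.1, 16.1 and 21.0 FPKM in Wnk1d/d replicates. Its groups overlapped, with the lowest value in Wnk1d/d replicate 1, and the log2 difference of -0.17 had an interval from -0.43 to 0.09 (limma adjusted p = 0.30); it was -0.09 without that library. *Wnk2* measured 7.69, 7.50, 5.50 and 8.08 FPKM in Wnk1f/f and 10.8, 14.4, 9.41, 7.39 and 8.34 FPKM in Wnk1d/d replicates. Here 4 of 5 Wnk1d/d libraries lay above all Wnk1f/f libraries, and replicate 4 lay among them. The means were 7.19 ± 1.15 FPKM (SD, n = 4) and 10.1 ± 2.75 FPKM (SD, n = 5), and the log2 difference of 0.41, with an unadjusted interval from 0.02 to 0.81, did not pass the test (limma adjusted p = 0.11, exact permutation p = 0.079). Without Wnk1d/d replicate 2 it was 0.29. That library held the lowest *Wnk1* (29.9 FPKM) and the highest *Wnk2* of its group. Replicate 4, with a similar *Wnk1* of 30.2 FPKM, held the lowest *Wnk2*. Replicate 1, with the highest *Wnk1* (33.9 FPKM), had 10.8 FPKM of *Wnk2*. A relation between these genes within the group was not tested.

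*Wnk3*, the WNK gene on the X chromosome (chrX:151198078-151320152, plus strand), was close to 0 throughout, with 0.15, 0.10, 0.15 and 0.12 FPKM in Wnk1f/f and 0.22, 0.17, 0.17, 0.18 and 0.19 FPKM in Wnk1d/d replicates. Every Wnk1d/d value was above every Wnk1f/f value, at a level more than 100 times below *Wnk1*. The difference of log2(FPKM + 1) was 0.07 (exact two-sided permutation p = 0.0079, the smallest possible). When limma was run with no filter, over 21949 genes, the same difference had an adjusted p of 0.064 and was not called. How many fragments stand behind these values is unknown. Of the 10589 annotated exon bases of *Wnk3*, 523 are shared with an antisense gene, as are 306 of 4148 in *Wnk4* and 361 of 4279 in *Slc12a4*. The counting is not stated to use strand, so fragments of these stretches cannot be assigned to either gene.

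The other WNK genes together did not make up for the FPKM that *Wnk1* had lost. The summed FPKM of *Wnk2*, *Wnk3* and *Wnk4* was 30.2, 26.2, 24.8 and 27.6 in Wnk1f/f and 24.8, 33.2, 28.7, 23.7 and 29.5 in Wnk1d/d replicates, and these ranges overlapped. With *Wnk1* included, the sum was 72.5 ± 2.31 (SD, n = 4) in Wnk1f/f and 59.2 ± 3.41 (SD, n = 5) in Wnk1d/d uteri, with no overlap. Mean *Wnk1* fell by 14.0 FPKM. The make-up of the family therefore shifted: *Wnk1* was 62.5% ± 2.38 (SD, n = 4) of the summed FPKM in Wnk1f/f and 52.9% ± 4.09 (SD, n = 5) in Wnk1d/d uteri, and *Wnk2* went from 9.92% ± 1.57 to 16.9% ± 3.86, both with no overlap. The share of *Wnk4* was 27.4% ± 1.58 and 29.9% ± 4.08, with overlap. *Wnk1* had the highest FPKM of the WNK genes in all 9 libraries. In Wnk1d/d uteri this FPKM includes any transcripts without exon 2, so how much intact *Wnk1* stands behind the sum, share and rank is unknown. These sums and shares are descriptions without a test, and a share rises when another gene falls.

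**Figure D3:**
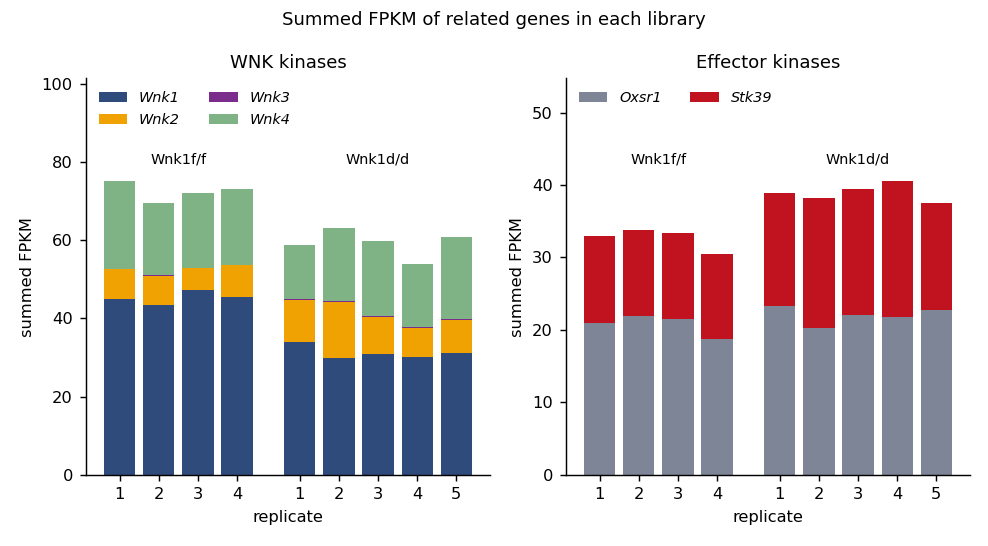
Summed FPKM (vertical axes, from 0) of the WNK kinases and of the effector kinases in each library, stacked by gene. The WNK sum is lower in Wnk1d/d libraries through its *Wnk1* part, and the effector sum is higher through its *Stk39* part.

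Of the effector kinases, *Stk39* rose and *Oxsr1* did not pass the test. *Stk39* (chr2:68210445-68472268, minus strand) measured 12.1, 11.9, 11.8 and 11.8 FPKM in Wnk1f/f and 15.6, 18.01, 17.5, 18.8 and 14.7 FPKM in Wnk1d/d replicates. The Wnk1f/f values were almost identical, and every Wnk1d/d value lay above them. The means were 11.9 ± 0.144 FPKM (SD, n = 4) and 16.9 ± 1.71 FPKM (SD, n = 5), a ratio of 1.42. On the log2 scale the difference was 0.47 with an interval from 0.30 to 0.64 (standard error 0.08, limma adjusted p = 0.0055, exact permutation p = 0.0079). *Oxsr1* measured 20.9, 21.9, 21.5 and 18.7 FPKM in Wnk1f/f and 23.3, 20.2, 22.0, 21.7 and 22.8 FPKM in Wnk1d/d replicates, and the groups overlapped. Its log2 difference of 0.08 had an interval from -0.07 to 0.23 (limma adjusted p = 0.39), and it was 0.03 without Wnk1f/f replicate 4.

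The effectors came closer in level as *Stk39* rose. *Oxsr1* FPKM was 1.75 ± 0.117 times that of *Stk39* in Wnk1f/f uteri (SD, n = 4) and 1.32 ± 0.194 times in Wnk1d/d uteri (SD, n = 5), with no overlap, and *Oxsr1* was the more abundant effector in every library. The summed FPKM of both effectors was 32.7 ± 1.48 (SD, n = 4) and 38.9 ± 1.15 (SD, n = 5), also with no overlap. Set against its effectors, *Wnk1* FPKM was 1.39 ± 0.0879 times their sum in Wnk1f/f (SD, n = 4) and 0.803 ± 0.0505 times in Wnk1d/d uteri (SD, n = 5). It was above the summed effector FPKM in all 4 Wnk1f/f libraries and below it in all 5 Wnk1d/d libraries. In Wnk1d/d uteri *Wnk1* FPKM includes any transcripts without exon 2, so this ratio is not one of intact kinase to effectors. No test was made of these ratios.

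Among the cotransporters, *Slc12a7* fell, and *Slc12a2* and *Slc12a4* did not pass the test. *Slc12a7*, which encodes KCC4 (chr13:73733094-73816754, plus strand), measured 15.9, 17.9, 15.2 and 17.2 FPKM in Wnk1f/f and 8.97, 14.0, 11.2, 11.2 and 12.0 FPKM in Wnk1d/d replicates. The groups did not overlap, although Wnk1d/d replicate 2 came close to the lowest Wnk1f/f library. The means were 16.5 ± 1.24 FPKM (SD, n = 4) and 11.5 ± 1.80 FPKM (SD, n = 5), a ratio of 0.693, and the log2 difference was -0.50 with an interval from -0.75 to -0.26 (standard error 0.11, limma adjusted p = 0.014). By exact permutation p was 0.016. *Slc12a4*, which encodes KCC1, measured 19.9, 16.2, 18.3 and 17.0 FPKM in Wnk1f/f and 17.2, 19.2, 23.9, 23.4 and 21.9 FPKM in Wnk1d/d replicates. Wnk1d/d replicates 3, 4 and 5 were above all Wnk1f/f libraries and the remaining ones were not, and the log2 difference of 0.23 had an interval from -0.01 to 0.46 (limma adjusted p = 0.15).

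*Slc12a2*, which encodes NKCC1 and was the most abundant cotransporter of the set, measured 33.8, 28.5, 36.7 and 25.9 FPKM in Wnk1f/f and 36.7, 34.7, 32.8, 37.9 and 31.2 FPKM in Wnk1d/d replicates. The Wnk1f/f libraries alone spanned most of this range, and the log2 difference of 0.16 had an interval from -0.08 to 0.39 (limma adjusted p = 0.30). Without Wnk1f/f replicate 4, and also with library weights, it was 0.07. The ratio of *Slc12a4* to *Slc12a7* was 1.09 ± 0.169 in Wnk1f/f (SD, n = 4) and 1.87 ± 0.305 in Wnk1d/d uteri (SD, n = 5), with no overlap. The ratio of *Slc12a2* to the sum of *Slc12a4* and *Slc12a7* was 0.908 ± 0.146 (SD, n = 4) and 1.08 ± 0.194 (SD, n = 5), with overlap, and without Wnk1d/d replicate 1 the difference of 0.171 was 0.0907.

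Ordered by mean FPKM, the 9 genes ran in Wnk1f/f uteri from *Wnk1* over *Slc12a2*, *Oxsr1*, *Wnk4*, *Slc12a4*, *Slc12a7*, *Stk39* and *Wnk2* to *Wnk3*. The ranges of *Oxsr1* and *Wnk4*, of *Wnk4* and *Slc12a4*, and of *Slc12a4* and *Slc12a7* overlapped, whereas the other neighbours did not overlap. Within libraries, *Wnk4* was above *Slc12a4* in all 4, while *Oxsr1* was above *Wnk4* and *Slc12a4* above *Slc12a7* in 2 of 4. In Wnk1d/d uteri *Slc12a2* came first, with 34.6 ± 2.75 FPKM (SD, n = 5), and was above *Wnk1* in 4 of 5 libraries, although their ranges overlapped. After them came *Oxsr1*, *Slc12a4*, *Wnk4*, *Stk39*, *Slc12a7*, *Wnk2* and *Wnk3*. Here only *Wnk1* and *Oxsr1*, *Stk39* and *Slc12a7*, and *Wnk2* and *Wnk3* were neighbours without overlap. *Stk39* and *Slc12a7* traded places: *Slc12a7* was above *Stk39* in all 4 Wnk1f/f libraries and below it in all 5 Wnk1d/d libraries. So did *Wnk4* and *Slc12a4*, with *Wnk4* above in all 4 Wnk1f/f libraries and *Slc12a4* above in all 5 Wnk1d/d libraries, although the ranges of this pair overlapped in each genotype.

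Other genes of the pathway were taken from 5 lists, with 36 genes used here, of which 34 had enough FPKM to be tested. Of these 34, 3 were called higher and 2 lower, where 11.1% and 11.0% of all genes tested were, so that 5 of 34 stand beside 22.1%. Both counts depend on single libraries, and the 5 became 2 without Wnk1f/f replicates 1 or 2 or Wnk1d/d replicate 3. Their median log2 difference was 0.05, against 0.003 for all genes tested. The list of other SLC12 transporters had 4 of the 5 genes used tested, with 0 called by limma and 0 at an unadjusted p under 0.05. Of the 14728 genes tested, 5662 had an unadjusted limma p under 0.05. *Slc12a9* (16.9 and 14.95 FPKM as means of Wnk1f/f and Wnk1d/d), *Slc12a3* (2.81 and 4.85 FPKM) and *Slc12a5* (1.69 and 1.346 FPKM) did not pass the test. *Slc12a1*, the kidney cotransporter NKCC2, was listed at 0 to 0.03 FPKM.

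Of the 11 genes for WNK turnover and upstream regulation, all tested, 1 was called higher and 2 lower. Among all genes tested, 11.1% were called higher and 11.0% lower. The unadjusted limma p was under 0.05 for 4 of the 11, and for 5662 of the 14728 genes tested. *Tsc22d3*, which encodes the glucocorticoid-induced leucine zipper protein and belongs to a family of WNK-binding proteins, measured 146, 149, 116 and 110 FPKM in Wnk1f/f and 81.2, 80.4, 67.5, 73.4 and 54.8 FPKM in Wnk1d/d replicates. All Wnk1d/d libraries were well below all Wnk1f/f libraries, and the log2 difference was -0.86 with an interval from -1.17 to -0.55 (limma adjusted p = 0.0055). Its relative *Tsc22d1* went from 254.5 ± 12.2 FPKM (SD, n = 4) to 207 ± 19.3 FPKM (SD, n = 5), a log2 difference of -0.30 (limma adjusted p = 0.030), and the lowest Wnk1f/f and highest Wnk1d/d values nearly met. *Nedd4l*, a ubiquitin ligase, went from 15.2 ± 1.08 FPKM (SD, n = 4) to 17.6 ± 0.786 FPKM (SD, n = 5), with overlapping libraries and a log2 difference of 0.20 close to the threshold (limma adjusted p = 0.049). The pseudokinase genes *Nrbp2* (94.6 and 101 FPKM as means of Wnk1f/f and Wnk1d/d) and *Nrbp1* (79.0 and 83.6 FPKM), and *Tsc22d4* (62.3 and 65.0 FPKM), did not pass. The call of *Tsc22d1* was lost without Wnk1f/f replicates 1, 2 or 3 or Wnk1d/d replicates 3 or 5 (limma adjusted p of 0.076, 0.059, 0.063, 0.072 and 0.072). *Klhl3*, an adaptor for WNK degradation named after its values were seen, had means of 1.24 and 0.56 FPKM and was not called (log2 difference -0.52, limma adjusted p = 0.071), but was called without Wnk1d/d replicate 2 (limma adjusted p = 0.024) and with library weights (limma adjusted p = 0.028). The call of *Nedd4l* was lost without Wnk1f/f replicates 1, 2 or 4 or Wnk1d/d replicates 2, 3, 4 or 5 (limma adjusted p of 0.11, 0.079, 0.13, 0.065, 0.10, 0.090 and 0.10), and also with a pseudocount of 0.01, with no filter and without trend (limma adjusted p of at most 0.057).

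Partners of SPAK and OSR1 gave 0 calls by limma among 4 genes tested, where 22.1% of all genes tested were called. An unadjusted p under 0.05 was found for 1 of the 4, and for 5662 of the 14728 genes tested. *Cab39*, which encodes the scaffold protein MO25 that activates both effectors, had means of 40.5 ± 4.01 FPKM (SD, n = 4) and 48.6 ± 5.12 FPKM (SD, n = 5), a log2 difference of 0.26 with an unadjusted interval from 0.05 to 0.46 (limma adjusted p = 0.069). Without Wnk1f/f replicate 3, whose 46.4 FPKM was the highest of its group, the difference was 0.32 and passed (limma adjusted p = 0.037). *Cab39l* (15.1 and 16.3 FPKM as means of Wnk1f/f and Wnk1d/d) and *Rell1* (12.5 and 13.7 FPKM) did not pass. In the cascade from WNK1 to ERK5, again 0 of 4 genes were called by limma, with 1 at an unadjusted p under 0.05. These counts stand beside the same shares of all genes tested. *Map2k5*, the kinase directly above ERK5, lay lower in every Wnk1d/d library, with means of 15.5 ± 0.843 FPKM (SD, n = 4) and 13.4 ± 0.915 FPKM (SD, n = 5), but missed the threshold (log2 difference -0.20, limma adjusted p = 0.061), and it was called only with the filter at 5 FPKM (limma adjusted p just under 0.050). *Map3k3* (32.7 and 35.9 FPKM) and *Mapk7*, which encodes ERK5 (20.3 and 19.6 FPKM), did not pass.

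Genes of chloride and cell volume transport had 2 higher, 0 lower and 9 not called among 11 tested. Among all genes tested, 11.1% were called higher and 11.0% lower. *Lrrc8b* and *Lrrc8d*, which encode subunits of the volume-regulated anion channel, were higher. The remaining subunits, named after their values were seen, did not pass: the log2 differences were -0.15 for *Lrrc8a* (limma adjusted p = 0.085), -0.21 for *Lrrc8c* (limma adjusted p = 0.29) and 0.26 for *Lrrc8e* (limma adjusted p = 0.24). The difference of *Lrrc8c* was -0.10 without Wnk1d/d replicate 1 and -0.11 with library weights. With *Lrrc8a*, 3 of the 11 genes had an unadjusted limma p under 0.05, as had 5662 of the 14728 genes tested. *Lrrc8b* went from 1.74 ± 0.236 to 2.84 ± 0.390 FPKM (log2 difference 0.49, limma adjusted p = 0.014, SD over 4 and 5 libraries), and *Lrrc8d* from 9.23 ± 0.439 to 11.7 ± 1.24 FPKM (log2 difference 0.30, limma adjusted p = 0.029). The call of *Lrrc8d* was lost without Wnk1f/f replicates 1, 2 or 4 or Wnk1d/d replicates 1 or 3 (limma adjusted p of 0.070, 0.050, 0.079, 0.058 and 0.066) and with library weights (adjusted p = 0.064). The sodium pump beta subunits *Atp1b3* (111 and 121 FPKM as means of Wnk1f/f and Wnk1d/d) and *Atp1b1* (57.4 and 73.4 FPKM), and the anion exchanger *Slc4a2* (31.6 and 31.7 FPKM), did not pass.

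**Figure D4:**
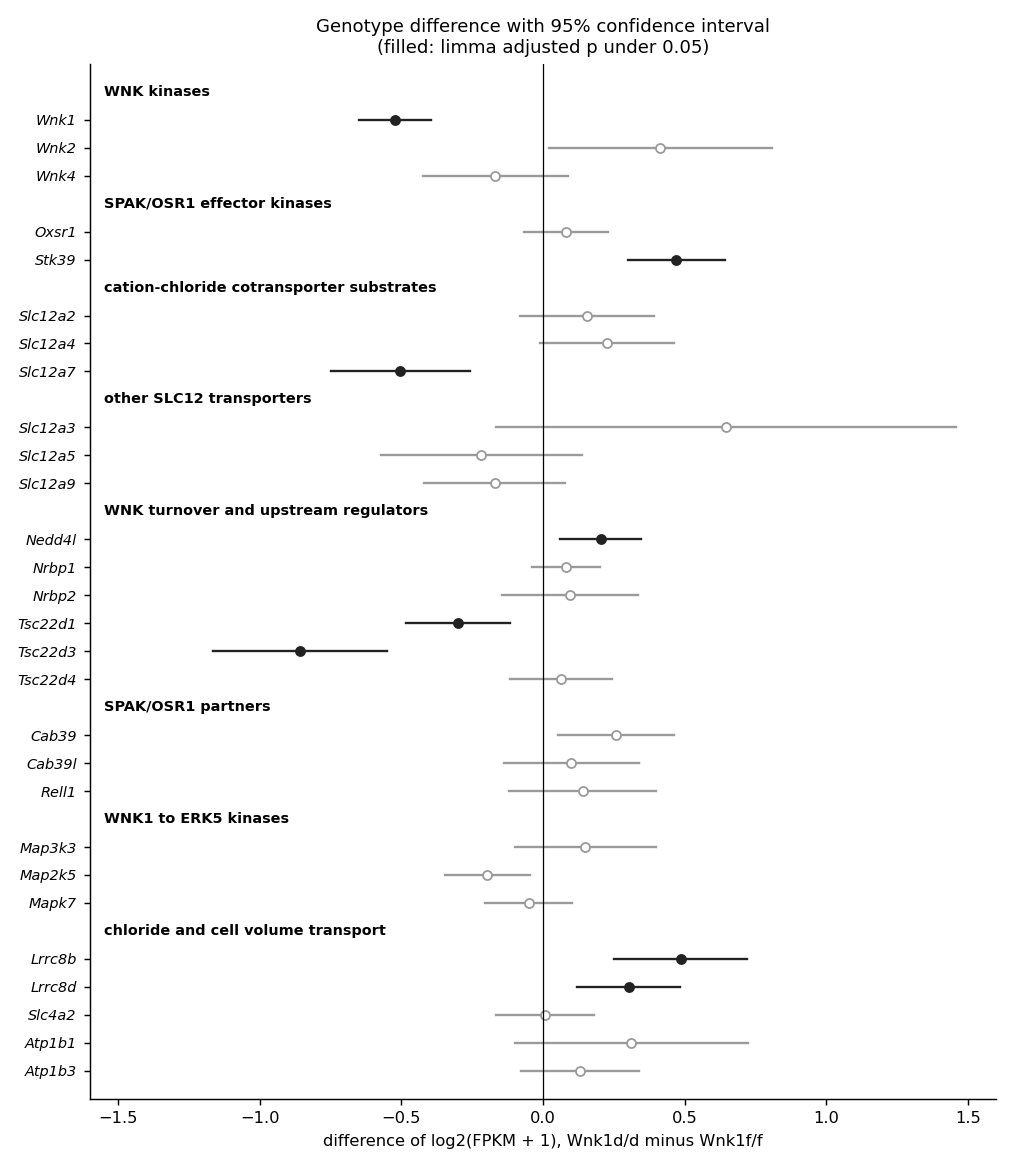
Difference of log2(FPKM + 1) between Wnk1d/d and Wnk1f/f uteri (horizontal axis) with its 95% confidence interval, for the 8 members tested and for other pathway genes by list. Filled points passed the limma test at an adjusted p of 0.05, and intervals are not adjusted for the number of genes. *Tsc22d3*, *Wnk1* and *Slc12a7* lie left of 0, and *Lrrc8b* and *Stk39* lie right of it.

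Over the 9 libraries, the genes tested whose log2(FPKM + 1) had the highest Pearson correlation with *Wnk1* were *Cep95* (r = 0.98), *Zfp560* (r = 0.97), *Nalcn* (r = 0.97), *Dpysl2* (r = 0.96) and *Rfx1* (r = 0.96). All 5 had a lower mean in Wnk1d/d uteri, as had *Wnk1*, for example 12.0 and 8.63 FPKM for *Cep95*. How much of these correlations comes from the difference between genotypes was not tested. After the genotype means were subtracted, the highest correlations were those of *Zbtb41* (r = 0.98), *Trim16* (r = 0.95), *AK212965* (r = 0.95), *Sec22a* (r = 0.95) and *Atl2* (r = 0.95), a different set. Both sets are the extremes among all genes tested over 9 libraries that share their processing, and are given as a description only.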

How the data were processed

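Libraries of whole uterus RNA, 1 per mouse, came from 4 Wnk1f/f and 5 Wnk1d/d mice. Per the submitters' processing notes, TopHat2 2.0.4 aligned the reads to mm10 and Cufflinks 2.0.2 was used. The authors deposited FPKM for each library, not pooled; the annotation behind it is not given in the sources used here. FPKM was used as deposited. limma 3.58.1 in R 4.3.3 (lmFit, eBayes with trend, unpaired) was fitted to log2(FPKM + 1) of genes with a mean above 1 FPKM in at least 1 genotype, with Benjamini-Hochberg adjustment, and was tested on simulated data. Single genes were also compared by exact two-sided permutation tests (Python 3.11.15, NumPy 2.4.6, pandas 2.3.3). The authors' Cuffdiff test needs aligned reads and was not rerun. No columns of other samples were present, and no 2 libraries were duplicates, with at most 0.93% identical values between any 2. Of the pathway lists, 2 genes are not reported here, and all counts leave them out. Members and gene lists were chosen with earlier results of these data known. Named were all members, every called gene of the pathway lists, up to 3 uncalled genes per list with the highest mean FPKM, and the 5 genes most like *Wnk1* by each of 2 correlations. Outside this rule, *Slc12a1*, *Klhl3*, *Lrrc8a*, *Lrrc8c* and *Lrrc8e* of the pathway lists were named in addition. Marker lists covered uterine identity, epithelium, stroma, smooth muscle, endothelium, immune cells and liver. Alternatives were pseudocounts of 0.1 and 0.01, no filter or one at 5 FPKM, median scaling, quantile normalization, no trend, robust estimation, library weights, a replicate block, each library left out, and a ratio of 2. Coordinates and sequence come from GENCODE release M21 (mm10), where all 9 symbols matched.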

Additional observations from a re-analysis of the deposited data

Results flagged for a closer look

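In 6 of 116 groups of libraries examined, over named genes, sums, ratios and marker sums, a single library lay far from the rest of its group by Dixon's criterion, and chance gives about 1 in 20. The largest gap was that of the liver markers, with a summed FPKM of 126 in Wnk1f/f replicate 4 against 6.50 to 9.84 in the other Wnk1f/f libraries. *Wnk1* in that library was 45.5 FPKM, within the range of its group.

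Wnk1d/d replicate 1 had the lowest *Nedd4l* of its group (16.2 FPKM against 17.7 to 18.1) and the highest *Atl2* (23.6 FPKM against 17.9 to 19.3). In Wnk1f/f replicate 1, *Wnk4* made up 29.8% of the summed WNK FPKM against 26.6% to 26.7% in the others. Wnk1f/f replicate 2 had the highest *Slc4a2* of its group (37.2 FPKM against 29.2 to 30.4). *Cab39* reached 46.4 FPKM in Wnk1f/f replicate 3 against 37.8 to 39.0 in the others.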

How the results depend on the processing

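The *Wnk1*, *Stk39* and *Slc12a7* calls held in all 9 alternative settings other than the replicate block and without each library in turn, with 3 members called each time. *Wnk1* ranged from -0.55 to -0.50 on the log2 scale without single libraries, *Stk39* from 0.43 to 0.52 and *Slc12a7* from -0.57 to -0.43 (highest limma adjusted p of 0.0067, 0.018 and 0.042 over those settings). *Wnk3* kept its direction in every setting run, from 0.06 to 0.08 without single libraries; no-filter limma gave 0.07 with an adjusted p of 0.064, and a pseudocount of 0.1 gave 0.32, as a smaller pseudocount enlarges differences of low values. The share of *Wnk4* in the WNK sum differed by 1.32 to 4.07 percentage points without single libraries. All genes called ranged from 1739 to 4216 without single libraries, with 1739 without Wnk1f/f replicate 4, 1800 without Wnk1d/d replicate 3 and 2051 without Wnk1d/d replicate 5, against 3249; pathway genes called ranged from 2 to 5, with 2 without Wnk1f/f replicates 1 or 2 or Wnk1d/d replicate 3 and 3 without Wnk1f/f replicate 4 or Wnk1d/d replicate 5, against 5. A ratio of at least 2 left 550 genes of 1513. A stricter ratio can only lower the count. The cause of the other changes was not tested. With a replicate block, 220 genes, 218 with the ratio of 1.5, 0 members and 1 pathway gene were called, the Wnk1 difference was -0.52 (limma adjusted p = 0.052), and 3880 genes had an unadjusted p under 0.05. The numbers belong to different mice, and deviations of libraries with the same number correlated at -0.09, -0.003, 0.02 and -0.27, so they share only a number. No alternative reversed a call. Depth is unknown, which limits what low values such as those of *Wnk3* can show.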

Other observations

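Of the remaining marker lists, uterine identity and stroma had genes that differed between the genotypes, and epithelium and liver had 0 calls by limma. Of 5 uterine identity genes, *Hoxa10*, *Hoxa11* and *Hand2*, transcription factors of uterine development, were called lower, as were 11.0% of all genes tested, and lay lower in every Wnk1d/d library, with *Hoxa10* at 231 ± 17.0 FPKM (SD, n = 4) in Wnk1f/f and 158 ± 17.1 FPKM (SD, n = 5) in Wnk1d/d uteri (log2 difference -0.55, limma adjusted p = 0.0062), whereas *Esr1*, the estrogen receptor, and *Pgr* did not pass the test. The summed FPKM of this list was 598 ± 28.6 (SD, n = 4) and 433 ± 46.9 (SD, n = 5), with no overlap.

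Of 5 stromal markers, 2 were higher and 2 lower, where 11.1% and 11.0% of all genes tested were. *Col1a1* rose from 319 ± 60.6 FPKM (SD, n = 4) to 619 ± 87.6 FPKM (SD, n = 5) (log2 difference 0.96, limma adjusted p = 0.0052), and *Col3a1* was also higher, while *Pdgfra* fell from 65.5 ± 12.5 to 37.7 ± 6.37 FPKM (log2 difference -0.78, limma adjusted p = 0.0085) and *Vim* was lower too. *Vim* was the most abundant of the list in Wnk1f/f uteri and *Col3a1* in Wnk1d/d uteri by mean FPKM. The summed FPKM of the stromal list overlapped between genotypes (2478 ± 189 and 2769 ± 269, SD, n = 4 and n = 5). None of 6 epithelial markers passed limma at an adjusted p of 0.05, with *Epcam* alone at an unadjusted p under 0.05, and *Krt18*, the most abundant of them, averaged 365 and 347 FPKM. Of 5 liver markers 0 passed limma, with *Serpina1a* alone at an unadjusted p under 0.05.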
